A study of Mus musculus with 6 samples.

Results

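The genes of distal mouse chromosome 12 were compared in liver between A/J-12SM and A/J mice. A gene was a member when its GRCm38 start lay at or beyond 85 Mb of chromosome 12 and when the array had a probe set for it alone, and 219 of the 18193 genes on the array met this rule. Another 20 genes of the interval were left out by design: Zfp386, Akt1, Fbln5, the Serpina family and the immunoglobulin heavy-chain genes. The choice used positions and names only. A/J-12SM is a chromosome 12 consomic strain, an inbred line in which the A/J chromosome 12 is replaced by that of the SM/J strain, so all members came from SM/J in one group and from A/J in the other. The rest of the genome is A/J in both strains. Both groups were male mice given a high-fat diet for 7 weeks, which the study's methods place at 6 to 13 weeks of age, and the methods describe the study as a search for the fatty liver locus nearer the centromere. There were 3 arrays of A/J-12SM liver and 3 of A/J liver, each with RNA combined from 3 mice, so a replicate is a group of animals and the spread between single mice was not seen.

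The interval holds genes of many kinds. It carries the imprinted Dlk1-Dio3 domain, a cluster in which the paternal chromosome expresses protein genes such as Dlk1 and the maternal one expresses long RNAs such as Meg3. It also carries the interferon-inducible Ifi27 family, the stress chaperone Hsp90aa1, several mitochondrial carriers and assembly factors, and enzymes of amino acid breakdown. In a consomic comparison, a member can differ through its own regulatory sequence or through the state of the whole liver, and these cannot be told apart here. The probes were designed on a reference genome. A base under a probe that differs between a strain and that reference can lower the strain's signal without a change in RNA. Such a base in SM/J would lower the A/J-12SM value, and one in A/J would make the A/J-12SM value look higher. Neither can be told apart from a difference in transcript level in these files, so the values below are called signals.

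Each gene was represented by its brightest probe set, a group of short probes for 1 transcript. Its value is the log2 of the MAS5 signal after quantile normalization, and the difference is A/J-12SM minus A/J on that log2 scale. Of the members, 190 were annotated as protein-coding and 29 as noncoding, 134 lay at or above the median brightness of all probe sets (a log2 signal of 5.33) and 85 lay below it. The arrays had a lower overall level in A/J-12SM (trimmed mean signals of 171 to 186) than in A/J (201 to 213), which the normalization removed. The ratio of 5′ to 3′ signal for beta-actin, a measure of RNA integrity, was 0.423 in A/J-12SM array 3 and 0.553 to 0.590 in the other 5 arrays. The same ratio for Gapdh did not set this array apart (1.53, against 1.45 to 1.55 in the other 5). Hepatocyte markers such as Alb and Apoa1 were near the top of the range on every array. The 10 genes taken as hepatocyte markers summed to 138165 to 144863 on the linear scale in A/J-12SM and 133328 to 138508 in A/J. Among the 10 was Trh, taken by name matching in place of the chosen marker Trf. Its mean log2 signal was 1.78, and the other 9 were at or above the median brightness. Lymphocyte and adipocyte markers were mostly below it. Correlations between arrays of the same strain (0.921 to 0.933) and of different strains (0.922 to 0.930) covered nearly the same range. By this measure the strains did not stand apart over all probe sets. Single arrays were not compared in this way.

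No member passed an adjusted p of 0.05 in limma, whose p-values were adjusted over all 45037 probe sets by the Benjamini-Hochberg method. Over all genes, 12 of 18193 passed (0.066%), and 4 of these lay on chromosome 12 below 85 Mb. At an unadjusted p under 0.05 there were 29 members of 219 (13.2%), against a background of 6.78% of all genes. The 29 were made of 13 with a higher signal in A/J-12SM (background 3.39%) and 16 with a lower one (background 3.4%). Among members at or above the median brightness the count was 22 of 134 (16.4%, background 7.98%), of which 8 were higher (background 3.98%) and 14 lower (background 4.0%). On the rest of chromosome 12, which also came from SM/J, it was 56 of 385 genes (14.5%), and on the other chromosomes 1141 of 17521 (6.51%). The distal share was thus close to that of the rest of the exchanged chromosome and above that of the unexchanged ones, and no test was made of the shares.

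For 38 members (17.4%, background 12.3%) no array of one strain lay within the range of the other. In 18 of them all 3 A/J-12SM arrays lay above all 3 A/J arrays (background 5.97%), and in 20 all lay below (background 6.35%). Among brighter members there were 26 (19.4%, background 14.0%), 10 higher (background 6.8%) and 16 lower (background 7.18%). For single genes the exact two-sided permutation test cannot go below p = 0.1 with 3 arrays against 3. The median difference of the members was -0.03, against -0.01 over all genes, with 95 higher and 124 lower values. Large differences were few: 5 of the 134 brighter members lay past 0.75 in either direction (3.73%, background 1.49%). Over members of any brightness it was 26 of 219 (11.9%), against 13.5% of all genes. Of the 26, most were dim, and the median standard deviation within a strain was 0.71 for dim members and 0.22 for brighter ones.

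**Figure D1:**
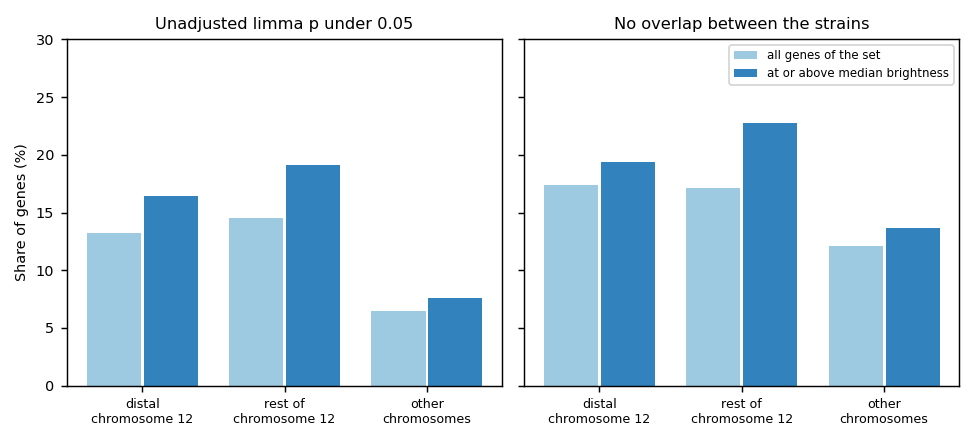
Share of genes in percent (y axis) with an unadjusted limma p under 0.05 (left) or with no overlap between the strains' arrays (right), for distal chromosome 12, the rest of chromosome 12 and the other chromosomes; light bars are all genes of a set and dark bars those at or above the median brightness. Distal chromosome 12 stands at 13.2% and 17.4% for all genes, the other chromosomes at 6.51% and 12.1%.

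Along the chromosome, the members without overlap were counted in windows, to be read against 17.4% of all members and 12.3% of all genes. From 100 to 105 Mb, the arrays did not overlap for 11 of 37 members (29.7%), and 8 of the 11 had a lower signal in A/J-12SM. From 105 to 110 Mb, which holds the centromeric part of the imprinted domain, they did not overlap for 1 of 37 members (2.7%), and that one (Bcl11b, a transcription factor of T cells and neurons) was dim. From 110 to 115 Mb the count was 12 of 64 (18.8%) and from 85 to 90 Mb 8 of 42 (19.0%), both near the share of all members. The windows of 5 Mb were set without regard to gene content and no test was made between them. With the signals as deposited the counts were 10 and 7 of 37 for the windows from 100 and from 105 Mb. With arrays centred on their median they were 7 and 2, and with arrays scaled to a common trimmed mean 10 and 1. The low count from 105 Mb was thus also seen under these 2 scalings. In the same order of settings, 57, 32 and 35 of all 219 members had no overlap, against 22.5%, 9.37% and 12.3% of all genes. The 3 genes just inside the 85 Mb limit, Prox2, Dlst and Rps6kl1, had differences of 0.11, -0.22 and 0.60, and the 3 just outside it, Arel1, Fcf1 and Ylpm1, of -0.26, -0.06 and -0.30.

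**Figure D2:**
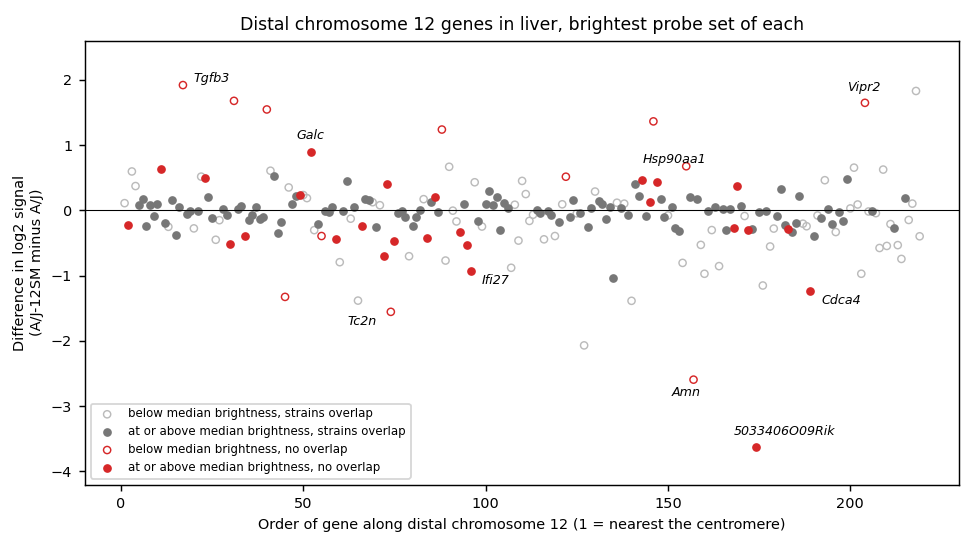
Difference in log2 signal, A/J-12SM minus A/J (y axis), for each of the 219 members, at its brightest probe set, in their order along the chromosome (x axis); filled points are at or above the median brightness, open points below it, and red points had no overlap between the strains. Most points lie near 0, and 5033406O09Rik lies lowest at -3.63.

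The largest difference among the members was a lower signal of 5033406O09Rik, an uncharacterized long noncoding RNA on chromosome 12 from 111941991 to 111944482. Its single probe set gave log2 signals of 3.89, 2.26 and 4.41 in A/J-12SM, against 7.34, 7.18 and 6.93 in A/J. The A/J arrays were close together and all A/J-12SM arrays lay below the median brightness of the array. The means were 3.52 ± 1.12 in A/J-12SM and 7.15 ± 0.21 in A/J (SD, n = 3 each), a difference of -3.63 (SE 0.51, 95% interval -4.76 to -2.49) on the log2 scale. With an offset added to every signal, which damps values near background, it was -2.80 (adjusted p = 0.0275 from limma). Its adjusted p of 0.0575 from limma was the lowest of any member's brightest probe set and did not pass. It passed with the signals as deposited (adjusted p = 0.0141 from limma) and with arrays centred on their median (adjusted p = 0.0407 from limma), and without A/J-12SM array 2, which was the lowest, the difference was -3.01 (adjusted p = 0.0214 from limma). With 1 prior variance for all probe sets the adjusted p from limma was 0.438. The neighbouring Atp5mpl, a small subunit of mitochondrial ATP synthase at 111961374, differed by -0.02 with a 95% interval of -0.21 to 0.19. The sequence around its start is shown because this gene had the largest difference of the interval. All printed windows are RefSeq sequence of GRCm38.p6, 250 bases before to 50 after the start, from the C57BL/6J reference strain, which is neither study strain. This one is chr12:111944433-111944732 on the minus strand, and capitals mark GGGCGG, the core of the GC box, on either strand:
5033406O09Rik: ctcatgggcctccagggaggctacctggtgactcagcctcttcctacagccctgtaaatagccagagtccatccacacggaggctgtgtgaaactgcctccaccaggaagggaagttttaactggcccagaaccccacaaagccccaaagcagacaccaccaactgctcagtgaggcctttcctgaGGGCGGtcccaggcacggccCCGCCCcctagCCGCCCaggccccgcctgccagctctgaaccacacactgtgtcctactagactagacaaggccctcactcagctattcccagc
The window held 3 such matches and had a GC content of 60.7%, against a median of 52.7% over all windows.

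Cdca4, a cell division cycle-associated regulator of E2F-dependent transcription, also had a lower signal in A/J-12SM. The log2 signals were 5.44, 5.44 and 6.02 in A/J-12SM, against 6.89, 6.85 and 6.87 in A/J. The groups stood apart and the A/J arrays were nearly equal. The difference was -1.23 (SE 0.23), 2.35-fold lower, with an adjusted p of 0.23 from limma. A second probe set for Cdca4 that reached the median brightness gave -0.90 (SE 0.29, unadjusted p = 0.0115) and the dimmest gave -0.21 (SE 0.58). The sign was the same at each, but the size varied. The names of the brighter probe sets carry a suffix for probes shared between transcripts. The dimmest, without that suffix, had no difference beyond its error (unadjusted p = 0.723 from limma). Cdca4 lies from 112820229 to 112829521 on the minus strand, and the window around its start (chr12:112829472-112829771, capitals as above) held 7 GGGCGG matches, of which some overlap by a base, with a GC content of 74.3%:
Cdca4: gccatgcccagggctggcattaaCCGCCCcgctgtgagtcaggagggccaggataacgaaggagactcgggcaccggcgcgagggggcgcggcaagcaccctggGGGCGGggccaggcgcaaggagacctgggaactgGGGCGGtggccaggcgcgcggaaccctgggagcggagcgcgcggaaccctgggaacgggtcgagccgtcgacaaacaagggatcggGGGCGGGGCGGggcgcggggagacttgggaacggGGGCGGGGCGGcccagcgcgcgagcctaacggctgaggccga

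Tc2n and Amn completed the group of lower members with a difference past 1 and no overlap in which the brighter strain reached the median brightness. Tc2n encodes a protein with C2 domains, which bind membranes. Its brightest probe set gave 4.16, 4.42 and 4.66 in A/J-12SM, against 6.28, 5.79 and 5.82 in A/J, a difference of -1.55 (SE 0.33, adjusted p = 0.345 from limma). The other 3 Tc2n probe sets, all dim, gave -3.17, -3.64 and -4.69, and for the last the means were 0.02 in A/J-12SM and 4.71 in A/J (adjusted p = 0.0874 from limma). All 4 Tc2n probe sets were therefore lower in A/J-12SM, by amounts that rest on signals near the floor of the array. Amn encodes amnionless, the membrane partner of cubilin in the uptake of vitamin B12 and proteins. Its single probe set gave 4.98, 1.94 and 3.72 in A/J-12SM, against 6.23, 6.23 and 5.95 in A/J (difference -2.59, SE 0.67, adjusted p = 0.485 from limma), and -1.80 without A/J-12SM array 2.

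**Figure D3:**
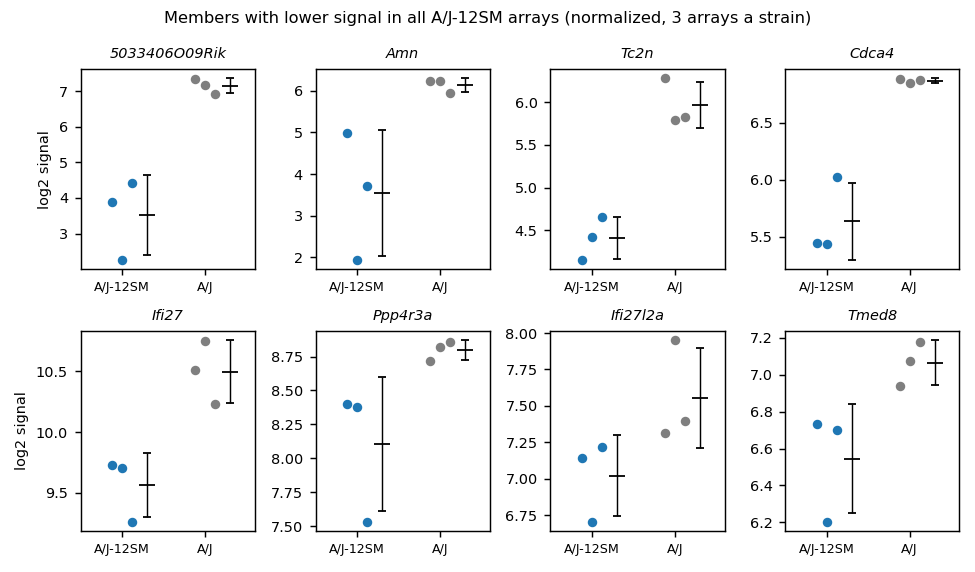
Normalized log2 signal (y axis, own scale per panel) of 8 members in each A/J-12SM array (blue, left) and A/J array (grey, right); points are arrays, and the dash and bars beside them are the mean and SD of 3 arrays. In every panel all A/J-12SM points lie below all A/J points.

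In the interferon and immune group, 14 genes were measured, of which 10 had lower and 4 higher values in A/J-12SM (median -0.24, against -0.01 over all genes). Of these, 4 had an unadjusted p under 0.05 (background 6.78%), and the arrays of 5 did not overlap (background 12.3%). The lowest difference of the group was that of Tc2n (-1.55), described above with signals near the floor. Ifi27, an interferon-inducible mitochondrial protein, was the brightest. Its log2 signals were 9.73, 9.71 and 9.26 in A/J-12SM, against 10.51, 10.75 and 10.23 in A/J. All arrays of A/J-12SM lay below all of A/J, with a difference of -0.93 (SE 0.16, 1.91-fold lower, adjusted p = 0.16 from limma). Its second probe set gave -0.68 (SE 0.14). With the signals as deposited the difference was -1.15 and passed (adjusted p = 0.022 from limma). The paralog Ifi27l2a gave 7.14, 6.71 and 7.22 in A/J-12SM, against 7.31, 7.95 and 7.40 in A/J (difference -0.53, SE 0.21), and the annotated span of Ifi27 (103434189 to 103440245) lies inside that of Ifi27l2a (103433873 to 103443680), so their probe sets may share transcripts and the assignment is uncertain.

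Most of the other interferon-inducible genes measured also had lower values. Of 27 listed genes such as Ifit1 and Irf7, 25 had lower values in A/J-12SM, with a median of -0.58, and 17 had an unadjusted p under 0.05, all lower (background 3.4%), though none passed adjustment in limma. Rsad2, in the list, lies on chromosome 12 below 85 Mb, and without it the counts were 24 and 16 of 26. The summed linear signal of the 27 was 12280 to 13677 in A/J-12SM and 14854 to 20327 in A/J, with A/J array 1 at the low end of its group. The 10 markers of Kupffer cells, the macrophages of the liver, all had lower values too (median -0.28, sums of 6037 to 7266 in A/J-12SM and 6817 to 8550 in A/J). Their part in the Ifi27 values was not tested, and in whole liver fewer cells of a type and less RNA per cell cannot be told apart. Other immune members had mixed values. Crip1, a zinc-binding LIM protein of immune cells, gave 7.60, 7.88 and 7.77 in A/J-12SM, against 7.03, 7.65 and 7.13 in A/J (difference 0.48, SE 0.18), with overlap, and Tnfaip2, a gene induced by tumour necrosis factor, differed by -0.01 (SE 0.11).

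Among genes of protein folding and degradation, Hsp90aa1 had the highest signal and the largest difference. It encodes the stress-inducible cytosolic chaperone HSP90 alpha. Its log2 signals were 12.12, 12.14 and 12.58 in A/J-12SM, against 11.82, 11.79 and 11.91 in A/J. The groups did not overlap, and A/J-12SM array 3 was the highest. The difference was 0.44 (SE 0.12, 1.36-fold higher, adjusted p = 0.586 from limma). A further pair of probe sets of high signal gave 0.40 (SE 0.10) and 0.36 (SE 0.10), so the 3 brighter probe sets gave nearly the same value. Averaged over all its probe sets the difference was 0.74, so at least 1 probe set below the median brightness gave a larger value. Without A/J-12SM array 3, the array with the low beta-actin ratio, the difference was 0.29. Ahsa1, which encodes the activator of the HSP90 ATPase and also lies in the interval, differed by 0.06 (95% interval -0.11 to 0.24).

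The 12 folding and degradation genes had 6 higher and 6 lower values (median -0.01), and the arrays of 6 did not overlap (background 12.3%). Sel1l, the adaptor of the endoplasmic reticulum ubiquitin ligase HRD1, gave 10.23, 9.96 and 10.28 in A/J-12SM, against 9.93, 9.89 and 9.93 in A/J (difference 0.24, SE 0.10). The other probe sets gave -0.01, -0.23, 0.21 and -0.43, so the sign depended on the probe set. Psmc1, an ATPase subunit of the proteasome, gave 10.38, 10.29 and 10.34 in A/J-12SM, against 10.47, 10.62 and 10.65 in A/J (difference -0.24, SE 0.08). Btbd7 (0.20), Bag5 (-0.27) and the deubiquitinase Otub2 (-0.33) were the others without overlap, and none of these differences passed adjustment.

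**Figure D4:**
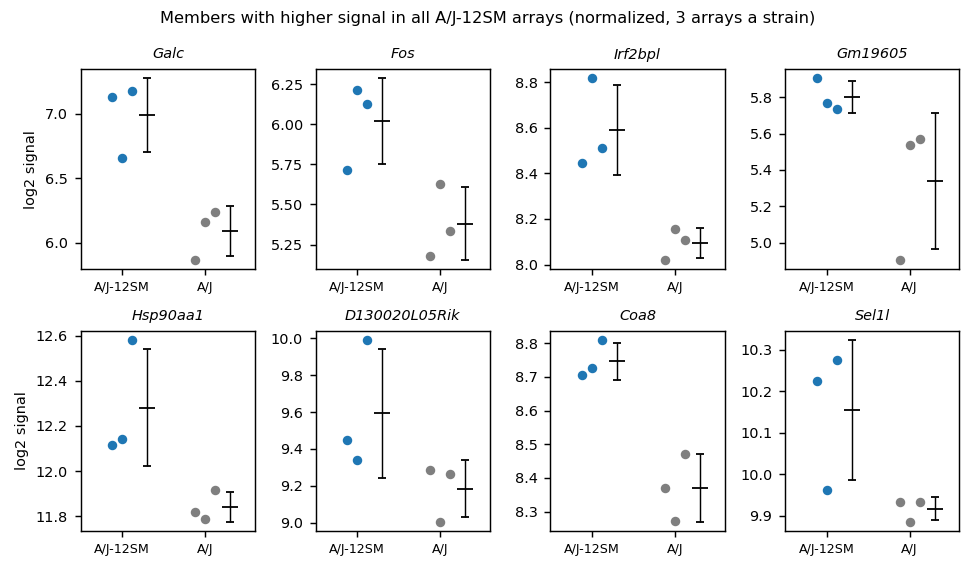
Normalized log2 signal (y axis, own scale per panel) of 8 members in each A/J-12SM array (blue, left) and A/J array (grey, right); points are arrays, and the dash and bars beside them are the mean and SD of 3 arrays. In every panel all A/J-12SM points lie above all A/J points, with Galc the widest apart at 0.90.

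Some of the differing genes faced each other head to head. Among the members, 16 pairs on opposite strands had starts within 1000 bases of each other or overlapping first ends. In 11 of them the differences had opposite signs. Some of these signs rest on differences near 0, such as Atg2b (0.01) and Gskip (-0.05), or on a dim gene, such as Prox2 (0.11) beside Dlst (-0.22). Opposite signs were not counted over other pairs of genes, so the count is not a trait of such pairs. A pair of examples was chosen after the values were seen. Bag5, a co-chaperone that regulates HSP70, and Coa8, an assembly factor of cytochrome c oxidase, have 11 bases between their annotated ends. Coa8 gave 8.70, 8.73 and 8.81 in A/J-12SM, against 8.37, 8.27 and 8.47 in A/J (difference 0.38, SE 0.10, adjusted p = 0.572 from limma), and a second probe set gave 0.49 (SE 0.19). The dim Coa8 probe set gave -0.96 (SE 0.51). Bag5 gave 8.04, 7.77 and 7.79 in A/J-12SM, against 8.06, 8.10 and 8.25 in A/J (difference -0.27, SE 0.13). On the same arrays, then, Coa8 had the higher and Bag5 the lower signal in A/J-12SM, both without overlap. The window around the Coa8 start (chr12:111713019-111713318, plus strand) also holds the Bag5 start and is shown for that reason. It held 1 GGGCGG match, in capitals, 50 CG pairs and a GC content of 74.0%:
Coa8: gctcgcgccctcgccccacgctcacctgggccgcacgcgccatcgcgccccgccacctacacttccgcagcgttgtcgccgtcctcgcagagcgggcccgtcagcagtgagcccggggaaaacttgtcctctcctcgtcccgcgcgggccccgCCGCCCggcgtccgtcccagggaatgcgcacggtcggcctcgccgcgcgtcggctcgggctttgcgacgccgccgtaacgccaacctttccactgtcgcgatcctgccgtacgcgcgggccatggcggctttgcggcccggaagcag

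The second pair was Ppp4r3a, a regulatory subunit of protein phosphatase 4, and the uncharacterized D130020L05Rik, whose annotated first ends overlap. Ppp4r3a gave 8.40, 8.38 and 7.53 in A/J-12SM, against 8.72, 8.82 and 8.86 in A/J (difference -0.69, SE 0.21, adjusted p = 0.622 from limma), and D130020L05Rik gave 9.45, 9.34 and 9.99 in A/J-12SM, against 9.28, 9.01 and 9.27 in A/J (difference 0.41, SE 0.16). In both genes A/J-12SM array 3 lay farthest from the A/J arrays, and without it the differences were -0.40 and 0.21. The remaining bright Ppp4r3a probe set gave 0.11 (SE 0.21). Since the genes overlap and the strand of a probe was not examined, a signal may hold transcripts of both. The Ppp4r3a window (chr12:101083653-101083952, minus strand) holds only the part of this shared stretch next to the Ppp4r3a start. It does not reach the D130020L05Rik start at 101082451, and it held 2 GGGCGG matches:
Ppp4r3a: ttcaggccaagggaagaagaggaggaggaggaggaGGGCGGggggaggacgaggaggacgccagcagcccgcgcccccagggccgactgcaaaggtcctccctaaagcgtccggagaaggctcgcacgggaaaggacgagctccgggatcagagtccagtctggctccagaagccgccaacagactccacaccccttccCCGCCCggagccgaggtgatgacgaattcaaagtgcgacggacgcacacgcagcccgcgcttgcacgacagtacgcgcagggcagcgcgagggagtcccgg
A window was given for 197 of the 219 members. GGGCGG on either strand occurred in 35.7% of all 32851 windows and in 53.6% of the 248 windows of members. CCAAT occurred in 37.4% and 34.7%, and TATAAA in 13.6% and 8.47%. The full set of windows was not limited to genes with a probe set of their own, and a gene could have several windows. The sets are thus unlike, and the shares were not tested. None of the 4 windows printed held CCAAT or TATAAA.

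The genes of amino acid and intermediary metabolism had lower values in 10 of 13 measured members (median -0.22), with 2 lower (background 3.4%) and 1 higher (background 3.39%) at an unadjusted p under 0.05. Gstz1, the maleylacetoacetate isomerase of tyrosine breakdown, was the brightest member of the interval and was nearly equal between strains, with 12.96 ± 0.10 in A/J-12SM and 13.03 ± 0.07 in A/J (SD, n = 3 each; difference -0.06, 95% interval -0.26 to 0.13). Itpk1, a kinase of inositol phosphates, gave 8.23, 8.11 and 7.91 in A/J-12SM, against 8.48, 8.60 and 8.45 in A/J (difference -0.43, SE 0.12, adjusted p = 0.586 from limma). Dlst, the succinyltransferase of the oxoglutarate dehydrogenase complex in the citric acid cycle, gave 9.95, 9.84 and 9.65 in A/J-12SM, against 10.10, 9.99 and 10.02 in A/J (difference -0.22, SE 0.10), but the 3 dimmer Dlst probe sets gave 0.05 to 0.33. The groups did not overlap in Itpk1 or Dlst, and the Dlst value rested on 1 probe set.

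Of 11 mitochondrial genes, 8 had lower and 3 higher values (median -0.03). Slc25a47, a carrier of the inner membrane found mainly in liver, was the second brightest member of the interval, with 12.72 ± 0.09 in A/J-12SM and 12.85 ± 0.06 in A/J (SD, n = 3 each; difference -0.13). Glrx5, the glutaredoxin that hands on iron-sulfur clusters, gave 11.89, 11.67 and 11.36 in A/J-12SM, against 11.97, 11.87 and 11.97 in A/J (difference -0.30, SE 0.12), with overlap between A/J-12SM array 1 and A/J array 2. Without A/J-12SM array 3 it was -0.16. Coa8, described above, had the opposite sign.

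Lipid and sterol metabolism was represented by 8 measured genes, 4 with higher and 4 with lower values (median 0.02). Galc, the lysosomal galactosylceramidase, had the largest higher signal among brighter members. It gave 7.13, 6.66 and 7.18 in A/J-12SM, against 5.87, 6.16 and 6.24 in A/J. The groups did not overlap, and the difference was 0.90 (SE 0.21, 1.87-fold higher, adjusted p = 0.432 from limma). Its dimmer probe sets gave 0.26 (SE 0.36) and 0.58 (SE 0.63), with the same sign and wide errors. Sptlc2, a subunit of serine palmitoyltransferase, which makes the first committed intermediate of sphingolipids, gave 7.35, 7.63 and 7.30 in A/J-12SM, against 7.83, 7.74 and 7.90 in A/J (difference -0.39, SE 0.14). Erg28, a scaffold of sterol synthesis, differed by -0.38 (SE 0.21) with overlap, A/J-12SM array 3 lying at 9.62 and the other 5 arrays at 10.42 to 10.64.

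In the secretory pathway and vesicle traffic, 15 genes had 8 higher and 7 lower values (median 0.01), and the 3 with an unadjusted p under 0.05 were all lower (background 3.4%). Zfyve21, a FYVE-domain protein that binds phosphoinositide membranes, gave 10.10, 10.14 and 9.97 in A/J-12SM, against 10.42, 10.25 and 10.42 in A/J (difference -0.29, SE 0.09), and its second probe set gave -0.26 (SE 0.10). Tmed8 gave 6.73, 6.20 and 6.70 in A/J-12SM, against 6.94, 7.08 and 7.18 in A/J (difference -0.52, SE 0.19). Trip11, the Golgi tether of the GMAP family, gave 7.96, 7.95 and 8.47 in A/J-12SM, against 8.50, 8.60 and 8.66 in A/J (difference -0.46, SE 0.15). In each of these the groups did not overlap. The ciliary gene Ttc8, a subunit of the BBSome, had a lower signal of the same kind (difference -0.44, SE 0.19), and 9 of the 11 cilia and centrosome genes had lower values (median -0.20).

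Of 25 measured genes of RNA processing, translation and transcription, 15 had higher and 10 lower values (median 0.05), and 1 had an unadjusted p under 0.05 (background 6.78%). That was Irf2bpl, a transcriptional regulator, with 8.45, 8.82 and 8.51 in A/J-12SM, against 8.02, 8.15 and 8.11 in A/J (difference 0.50, SE 0.13, adjusted p = 0.485 from limma) and 0.33 (SE 0.18) at its other bright probe set. Eif5, the translation initiation factor that triggers GTP hydrolysis on the scanning ribosome, was among the 5 brightest members and differed by 0.05 (95% interval -0.13 to 0.23), and Yy1, a zinc-finger transcription factor, by 0.14 (SE 0.10). Fos, the immediate-early component of AP-1, gave 5.71, 6.21 and 6.13 in A/J-12SM, against 5.18, 5.63 and 5.34 in A/J (difference 0.64, SE 0.27). Jdp2, which like Fos dimerizes with Jun proteins, differed by -0.19 (SE 0.28). Genome maintenance and cell cycle genes had lower values in 9 of 11 members (median -0.27), with Cdca4 the only one at an unadjusted p under 0.05 and Siva1, an apoptosis regulator, next without overlap (-0.28, SE 0.14).

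In the imprinted domain none of the 5 measured genes had an unadjusted p under 0.05 or separate groups. Dlk1, a transmembrane ligand of the Notch family that is high in fetal liver, was dim, with 4.86, 5.61 and 4.11 in A/J-12SM, against 5.26, 4.53 and 4.43 in A/J (difference 0.12, 95% interval -0.95 to 1.19). Meg3, the maternally expressed long RNA, gave 7.15, 7.26 and 6.98 in A/J-12SM, against 7.17, 7.37 and 6.72 in A/J (difference 0.04, 95% interval -0.39 to 0.47). The groups overlapped widely in both. The other maternally expressed RNAs Rian and Mirg differed by 0.10 (SE 0.50) and -0.07 (SE 0.25), and Dio3os, antisense to the deiodinase gene Dio3, by 0.40 (SE 0.27). The intervals of these genes leave room for differences of the size seen at Galc or Ifi27 in Dlk1 and Rian and, on the higher side, in Dio3os, and not in Mirg or in Meg3 at its brightest probe set.

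Meg3 was also one of 3 members whose brighter probe sets lay more than 1 apart. Of 55 members with at least 2 probe sets that reached the median brightness, the differences of those probe sets lay within 0.5 of each other in 40 and more than 1 apart in Wars, Meg3 and Inf2. Meg3 had 5 such probe sets, with differences of -0.47 to 0.95, of which 0.95 (unadjusted p = 0.0156) and 0.57 (unadjusted p = 0.036) were the highest. Wars, the tryptophanyl-tRNA synthetase, gave 0.05, -0.43, 0.28 and 1.20 from its brightest to its dimmest probe set, the last with means of 6.52 in A/J-12SM and 5.31 in A/J (adjusted p = 0.383 from limma). Inf2, an actin-regulating formin, gave 0.32 and -0.80. In these 3 genes the sign depended on the probe set, while Hsp90aa1, Ifi27, Cdca4 and Zfyve21 gave 1 sign at all their probe sets. A change of sign was not confined to the 3. Many members with a narrower span also had both signs, such as Ppp2r5c (-0.33 to 0.64) and Alkbh1 (-0.15 to 0.78).

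**Figure D5:**
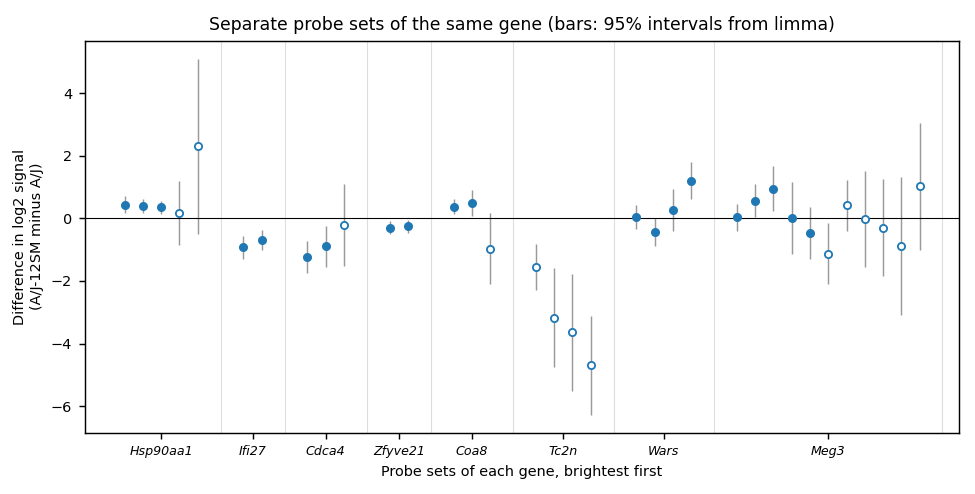
Difference in log2 signal, A/J-12SM minus A/J (y axis), of every probe set of 8 members, ordered from the brightest on the left within each gene (x axis); points are limma estimates, bars their 95% intervals, filled points at or above the median brightness and open points below it. The probe sets of Ifi27 and Zfyve21 lie on the same side of 0, and those of Wars and Meg3 lie on both sides.

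The remaining groups were mostly dim. Of 22 signalling genes, 13 had higher values (median 0.09), and 2 had an unadjusted p under 0.05 on the higher side (background 3.39%). Both were dim. Tgfb3, a cytokine of the transforming growth factor family, gave 4.08, 4.14 and 3.85 in A/J-12SM, against 2.49, 1.97 and 1.85 in A/J (difference 1.92, SE 0.61). Vipr2, a receptor for vasoactive intestinal peptide, gave 5.04, 5.26 and 5.25 in A/J-12SM, against 3.79, 4.52 and 2.29 in A/J (difference 1.65, SE 0.59). All 6 values of each lay below the median brightness of the array. None of the 22 nerve and endocrine genes had an unadjusted p under 0.05, and the 5 at or above the median brightness were led by Nrxn3, a synaptic adhesion protein, at 0.53 (SE 0.33). The germ cell genes were dim or near the median apart from Tcl1b3 (10.92 ± 0.37 in A/J-12SM and 10.89 ± 0.39 in A/J; SD, n = 3 each) and Cox8c, both without a difference beyond their spread. Of the 45 members in none of these groups, 4 had an unadjusted p under 0.05 (background 6.78%). They were 5033406O09Rik, D130020L05Rik and the dim 3200001D21Rik (1.55, SE 0.62) and 1700001K19Rik (1.36, SE 0.47). Gm19605, an uncharacterized gene of this set near the median brightness, gave 5.90, 5.77 and 5.74 in A/J-12SM, against 4.91, 5.54 and 5.57 in A/J (difference 0.47, SE 0.29), without overlap.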

How the data were processed

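Liver RNA was measured on 6 one-colour Affymetrix arrays. The authors deposited intensity values on a linear scale, 1 per probe set and array, which the submitters' processing notes credit to MAS5. Its version and scaling are not stated there or in the methods. Array levels differed between strains, so log2 signals were quantile normalized, which removes any true overall difference. Strains and replicates came from the labels, with no array left out. All 45037 non-control probe sets were fitted with limma 3.58.1 in R 4.3.3 (lmFit, eBayes with a trend on brightness), with p-values adjusted by the Benjamini-Hochberg method. The 64 control probe sets were left out. Gene names came from the array platform's annotation and positions from a RefSeq annotation of GRCm38.p6. Of the probe sets, 34945 carried 1 gene (34884 matched), 932 several and 9160 none, and 48 genes had no position. Only probe sets with 1 gene were used. The brightest probe set stood for a gene. The limma step was tested on simulated data. With 3 arrays a strain, their number limits the precision. Plots used matplotlib 3.10.9 (Python 3.11.15).

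The members and gene lists were chosen with earlier results of these data known. Genes were named by a rule that takes members with a called probe set, the 8 with the largest higher and the 8 with the largest lower signal among those without overlap whose brighter strain reached the median brightness, the 2 brightest of each role group, the imprinted genes, the 5 brightest members and those whose bright probe sets disagreed by more than 1. It took 49. Others are named because their unadjusted p was under 0.05, their arrays did not overlap, or they adjoin or partner a named gene, which was chosen after their values were seen. Alternatives were other scalings, an offset, a filter on dim probe sets, 1 prior variance, the methods' t-test, other choices of probe set, the replicate number as a block and leaving out each array.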

Additional observations from a re-analysis of the deposited data

How the results depend on the processing

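No member passed an adjusted p of 0.05 in limma after quantile normalization, and 29 had an unadjusted p under 0.05. The count of members that passed was 2 with the values as deposited (Ifi27 and 5033406O09Rik), 1 with arrays centred on their median, 1 with arrays scaled to a common trimmed mean, 1 after adding an offset of 9.20 to every signal and 1 without the dim probe sets (each 5033406O09Rik), and 0 with 1 prior variance, with the methods' t-test and with other choices of probe set. Leaving out 1 array gave 0 to 1, the 1 being 5033406O09Rik without A/J-12SM array 2 (adjusted p = 0.0214) or 3 (adjusted p = 0.039). At an unadjusted p under 0.05, 1 prior variance gave 19 members (8.68%, against 4.52% of all genes), the methods' t-test 20 and leaving out 1 array 20 to 33. With the values as deposited the share was 19.2% of members, against 15.9% of all genes, so the gap to the background was narrower than after normalization. Members without overlap numbered 38, and 47 to 63 with 2 arrays in a strain, when the share over all genes was also higher. The median difference of the members was -0.03, -0.05 to -0.02 without 1 array, and -0.25 with the values as deposited, where the median over all genes was -0.22.

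Of 783 values of the 49 named members under an alternative, 722 kept their sign and side of the threshold, 9 passed the threshold, and 52, from 23 members, changed sign. The differences of these 23 after quantile normalization lay at most 0.38 from 0. Only 4 of the 52 were in members without overlap, all when the probe sets of a gene were averaged in place of taking the brightest: Dlst at 0.0661, Sel1l at -0.0436, Coa8 at -0.0342 and Siva1 at 0.0809. Averaging also turned Cox8c (0.249), Dlk1 (-0.323), Tnfaip2 (0.0917) and Inf2 (-0.237), and the brightest probe set without a shared suffix turned Dlk1 (-0.765). With the values as deposited, 12 members higher after normalization had negative differences: Tmed10 -0.122, Flvcr2 -0.0882, Ahsa1 -0.130, Eml5 -0.176, Tcl1b3 -0.152, Yy1 -0.0633, Wars -0.188, Dlk1 -0.120, Meg3 -0.183, Rian -0.105, Ppp2r5c -0.00422 and Eif5 -0.114. Centring on the median turned Gstz1 (0.0952), Slc25a47 (0.0105), Tnfaip2 (0.00410) and Atp5mpl (0.0546), and the trimmed mean turned Gstz1 (0.0645) and Atp5mpl (0.0239). Leaving out 1 array turned 11 members, with ranges of -0.0826 to 0.0224 for Atp5mpl, -0.269 to 0.202 for Cox8c, -0.255 to 0.492 for Dlk1, -0.256 to 0.265 for Eml5, -0.00771 to 0.275 for Flvcr2, -0.142 to 0.182 for Meg3, -0.289 to 0.0892 for Mirg, -0.0415 to 0.364 for Rian, -0.184 to 0.208 for Tcl1b3, -0.0660 to 0.0373 for Tnfaip2 and -0.0651 to 0.120 for Wars.

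The labels number the replicates of both strains, but nothing says that equal numbers share a litter or day. The deviations of same-numbered arrays from their strain means correlated at -0.06, 0.09 and 0.16, and those of differently numbered arrays at -0.23 to 0.15. With means of only 3 arrays, these values cannot tell whether equal numbers share anything more. With the replicate number as a block in limma, 1 member passed (Ifi27, adjusted p = 0.0204). An unadjusted p under 0.05 was then found for 28 (12.8%, against 7.49% of all genes). The 85 members below the median brightness are limited by signal over background.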
